A study of Arabidopsis thaliana with 54 samples.

Results

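The young microRNAs of Arabidopsis thaliana from miR771 to miR870 were taken from a table of small RNA read counts by their names. A feature was a member when its first family number lay in that range and its family was not miR778, miR779, miR825, miR827, miR828, miR829, miR840, miR857 or miR858, and when it had at least 1 count. These were 67 of 286 microRNA features and of 223651 features in all, from 42 families. The values did not choose the members. The libraries came from whole seedlings of the accession Columbia 0, with shoot, hypocotyl and root together, and all plants shared that genotype. Seeds were stratified for 48 h, and seedlings spent 10 days in 12 h of light and 12 h of dark. On day 11 a set was moved to long day (16 h of light and 8 h of dark), a set was moved to short day (8 h of light and 16 h of dark), and a set stayed in equinox day (12 h of light and 12 h of dark). All were harvested on day 13, at Zeitgeber time (ZT, hours after lights on) 4, 8, 12, 16, 20 or 24 h, with 3 libraries per photoperiod and time and 54 libraries in all. Whether the 3 libraries of a group are separate cultures is not in the labels, and p-values therefore measure only the spread between these libraries. At the same ZT more of the libraries were taken in light under long day, so photoperiod and the light at harvest cannot be told apart in a mean over times. In whole seedlings, fewer cells that make a microRNA and less of it per cell cannot be told apart either.

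MicroRNAs are cut as short duplexes from a hairpin transcript, in plants mostly by the nuclease DCL1, and 1 strand of the duplex guides an ARGONAUTE protein to transcripts with a matching site. Conserved plant families date back to the early land plants. Young families, by contrast, are found in Arabidopsis and its close relatives, usually come from a single locus and are made at low levels, and for many no target is known. Some have well-described targets. The families miR823 and miR773 match transcripts of DNA methyltransferases, miR846 and miR842 those of jacalin-related lectins, miR824 that of the stomatal regulator AGL16, and miR845 matches the primer-binding sites of retrotransposons.

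Below are the mature sequences that the results turn on, 5′ to 3′ from the RefSeq annotation of assembly TAIR10.1, with the seed (bases 2 to 8) in capitals. The first 6 changed between long day and short day or between short day and equinox day. Next come miR841b-3p, the closest relative of miR841a-3p, which also passed for short day minus equinox day, and miR822-3p, the other arm of miR822. The last 3 are the abundant miR845a, its relative miR845b and the abundant miR846-3p.
miR841a-3p: aUUUCUAGugggucguauuca
miR852: aAGAUAAGcgccuuaguucug
miR822-5p: uGCGGGAAgcauuugcacaug
miR823: uGGGUGGUgaucauauaagau
miR831-3p: uGAUCUCUucguacucuucuug
miR843: uUUAGGUCgagcuucauugga
miR841b-3p: cAAUUUCUagugggucguauu
miR822-3p: uGUGCAAAugcuuucuacagg
miR845a: cGGCUCUGauaccaauugaug
miR845b: uCGCUCUGauaccaaauugaug
miR846-3p: uUGAAUUGaagugcuugaauu

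None of these 11 shares a seed with another feature of the table. The annotated miR841a-3p and miR841b-3p share a run of 19 nt and are shifted against each other by 2 nt, so their seeds differ. Each locus holds the complete mature sequence of the other, and both sequences match the genome at 2 places, so the annotated sequences differ in their 5′ ends and either locus holds both. By contrast, miR845a (21 nt) and miR845b (22 nt) share a longest run of 13 nt and each matches 1 place. The sources used here do not say how reads that match several features were assigned, so the split of counts between miR841a-3p and miR841b-3p is uncertain. Whether these features count 5′ ends or loci is not known either.

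The hairpins lie on all 5 chromosomes. In TAIR10.1, miR841a-3p is annotated at chr4:7885296-7885316 on the minus strand, opposite an intron of HTA4, a histone H2A gene, and miR841b-3p at chr4:2184420-2184440 on the plus strand. The mature miR852 lies at chr4:8336302-8336322 on the plus strand, inside an intron of AT4G14500 on the same strand. Both arms of MIR822 lie on the minus strand, miR822-5p at chr5:897287-897307 and miR822-3p at chr5:897067-897087, opposite an intron of AT5G03553. No other annotated gene overlaps miR823 (chr3:4496826-4496846, minus strand), miR831-3p (chr2:10247390-10247411, plus strand), miR843 (chr3:17742147-17742167, plus strand), miR845a (chr4:12217457-12217477, minus strand) or miR846-3p (chr1:22577662-22577682, plus strand). Several members are close neighbours on the same strand. Between mature sequences, miR842 ends 448 bp before miR846-3p, with miR846-5p between them, miR850 lies 867 bp from miR863-5p, and miR845b lies 3350 bp from miR845a.

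Of the 67 members, 54 (80.6%) have a mature length of 21 nt, 11 have 22 nt and 2 have 20 nt, and 75.3% of the other 219 microRNA features have 21 nt. A 5′ U, the base that ARGONAUTE1 favours, opens 51 members (76.1%) and 51.1% of the other microRNA features. Another gene on the same strand holds 8 members in an exon and 13 outside its exons. A further 11 lie opposite a gene, and 35 overlap no other gene. The best known host is DCL1 itself, whose intron holds miR838. PKL, a chromatin remodeller, holds both arms of miR862 in an intron, and the nitrate transporter gene NRT1.9 holds both arms of miR837.

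Libraries held 13.7 to 23.3 M counts, of which a single entry named genome took 79.6% to 92.9% and was left out. The remaining 1.33 to 3.59 M counts held 114873 to 409911 microRNA counts, and members took 2.1% of these. Levels are given in CPM, counts per 1e+06 counts outside the genome entry after scaling by TMM factors, so 1 CPM is only a few counts in a library. Values set between members compare counts of molecules of nearly the same length. On the first principal component, 5 short day libraries (ZT24 C, ZT4 B, ZT12 C, ZT16 B and ZT20 A) lay apart from the rest. Their genome share was 88.9% to 92.9%, against 80.3% to 90.3% in the other 13 short day libraries, and calls that use short day libraries are given with and without them. The table names no marker genes of tissues, so the tissue label could not be checked here.

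The members were rare and very unequal. Summed over 54 libraries they had 272670 counts, of which miR845a alone held 150517 and miR846-3p, the lectin regulator, 39444, together 69.7% of the total. The 10 most abundant held 91.6%. By mean CPM over 54 libraries, miR845a stood at 1171 ± 566 (SD) and miR846-3p at 303 ± 82.5. They were followed by miR822-5p, which matches transcripts of DC1-domain proteins, at 103 ± 55.5 and by miR843 at 95.9 ± 42.6. Next came miR866-3p at 65.0 ± 22.1, miR775, which targets a galactosyltransferase transcript, at 58.5 ± 15.2, and miR822-3p at 51.3 ± 13.9. The last of the 10 were miR824-3p at 31.8 ± 14.9, the feature that joins miR781a and miR781b at 26.9 ± 8.28, and miR846-5p at 24.2 ± 7.56. In this order, miR822-5p and miR843 differed by less than the SD of either between libraries. The same held for neighbours from miR866-3p to miR822-3p and from miR824-3p to miR846-5p.

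**Figure D1:**
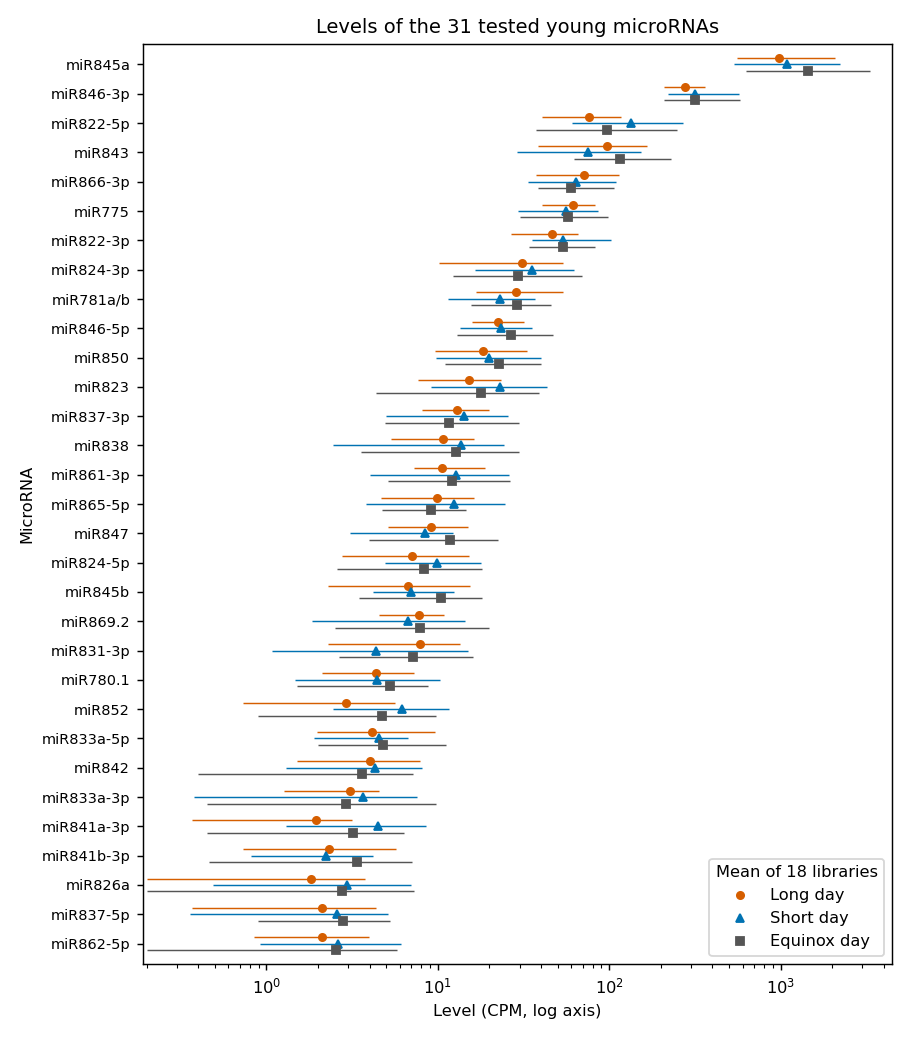
Levels of the 31 tested young microRNAs in CPM on a log axis, as the mean of 18 libraries for long day (circles), short day (triangles) and equinox day (squares), with a line from the lowest to the highest library. Lines that reach the left edge start at 0. The order runs from miR845a, at 1171 CPM over all libraries, down to miR862-5p, at 2.42 CPM, and the 3 lines of each microRNA overlap.

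A filter on low counts (a minimum count of 10 in as many libraries as a group holds) kept 31 members, which held 99.3% of the member counts, among 8869 features tested. Their mean levels ran from 2.42 CPM (miR862-5p) to 1171 CPM, with a median of 10.5, and 15 of them were below 10 CPM. The other 36 members had between 1 and 229 counts in all, with a median of 28.5, and 22 of them had a count in fewer than 27 libraries. The 4 highest of these were miR773a with 229 counts in 50 libraries, miR830-3p with a mean of 1.30 CPM and counts in 48, miR844-3p with 143 counts in 44 and miR863-3p with 141 counts in 45. These 36 were left out of the tests, and in a fit with no filter none of them passed in any of the 8 tests. Between 35 and 52 members were detected in a library, on average 43.9 under long day, 47.2 under short day and 44.1 under equinox day.

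Both arms were counted for 19 hairpins. The 3p arm was the higher in 11 of them and the 5p arm in 8, and in 8 hairpins 1 arm held over 90% of the counts. The most one-sided was miR866, with 4 counts on 5p and 8494 on 3p, a 5p share of 0.0471% (95% Wilson interval 0.0183% to 0.121%, counting error only). Near it were miR861, with 5 counts on 5p and 1520 on 3p, and miR865, with 1374 on 5p and 4 on 3p. miR846 had 3174 counts on 5p and 39444 on 3p, so its 3p arm held 92.6%. The arms of miR822 were closer, with 13717 counts on 5p and 6647 on 3p (5p share 67.4%, interval 66.7% to 68.0%), and those of miR863, whose 3p strand acts in immune signalling, could not be told apart at this depth, with 126 and 141 counts (5p share 47.2%, interval 41.3% to 53.2%).

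Long day against short day compared the widest step in day length, as means over the 6 times. Of the 31 tested members 5 passed an adjusted p of 0.05, a share of 16.1%, while 25.2% of all 8869 features did. By direction, 1 was higher under long day (10.8% of all features were) and 4 were lower (14.4% of all features were). The median log2 fold change over the 31 members was -0.17, with 22 negative. It was -0.02 over all 8869 features (4559 negative), -0.14 over 72 tested features of conserved families (48 negative) and -0.29 over the other 46 microRNAs (31 negative).

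The strongest changes by fold were in miR841a-3p and miR852, and they differed from each other by less than their standard errors. For miR841a-3p the lowest, median and highest levels were 0.367, 1.97 and 3.16 CPM under long day, and 1.30, 4.22 and 8.55 CPM under short day. The highest long day library lay below the short day median. It fell under long day, by 1.18 on the log2 scale (SE 0.243, adjusted p = 0.000384), and was lower at 6 of 6 times. These levels rest on 83 counts over the 18 long day libraries and 196 over the 18 short day libraries.

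The intronic microRNA miR852 had 0.734, 2.60 and 5.66 CPM under long day, and 2.45, 5.44 and 11.6 CPM under short day as lowest, median and highest. The 5 highest short day libraries, all above 10 CPM, had no counterpart under long day. The log2 fold change was -1.07 (SE 0.242, adjusted p = 0.00111), again with a lower level at 6 of 6 times. Its short day means were highest at ZT16, with 8.63 ± 3.26 CPM, and at ZT24, with 8.41 ± 4.53 CPM (SD, n = 3 each).

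Of the 10 most abundant members, miR822-5p was the only one past the threshold in this test. It ranged from 40.4 to 117 CPM under long day with a median of 75.9, and from 61.0 to 268 CPM under short day with a median of 132. Most short day libraries lay above the highest long day library. Its log2 fold change was -0.76 (SE 0.187, adjusted p = 0.00273), with the same sign at 6 of 6 times. The size ran from -0.11 at ZT4 to -1.46 at ZT24.

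Guiding the cleavage of the transcript of the DNA methyltransferase CMT3, miR823 is known for a role in non-CG methylation. It had 7.70, 14.8 and 23.5 CPM as lowest, median and highest under long day, and 9.18, 21.9 and 43.4 CPM under short day. The groups overlapped widely at the low end, and the short day libraries reached higher. Its log2 fold change was -0.55 (SE 0.192, adjusted p = 0.0302), with the same sign at 6 of 6 times. The call was lost when long day ZT24 A, long day ZT12 A or short day ZT20 A was left out, where the adjusted p reached 0.0569, and also with totals that keep the genome entry.

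The 1 member higher under long day was miR831-3p. Its lowest, median and highest levels were 2.28, 7.81 and 13.5 CPM under long day, and 1.08, 3.14 and 14.9 CPM under short day. The short day group held both the lowest and the highest of these libraries. The log2 fold change was 0.90 (SE 0.239, adjusted p = 0.00529), positive at 5 of 6 times. Without the 5 short day libraries that lay apart it was 0.72 with an adjusted p of 0.0642, so the call was lost. That fit has fewer short day libraries, and 1062 of 9269 features passed in it, against 2231 of 8869 with all libraries. Without the same 5 libraries the other 4 calls held, at -1.22 for miR841a-3p, -1.23 for miR852, -0.87 for miR822-5p and -0.70 for miR823, with adjusted p of 0.00107, 0.000608, 0.00196 and 0.0146. With no filter on low counts, where 1715 of 223651 features passed, miR841a-3p, miR852 and miR822-5p passed, and miR831-3p and miR823 did not. Fitted on microRNAs alone, all 5 passed and so did miR824-5p, miR775, miR843 and the joined miR781 feature. In that fit the last 3 were higher under long day, by 0.28, 0.53 and 0.42 on the log2 scale. It called 9 of 30 members and 69 of all 145 microRNA features tested.

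**Figure D2:**
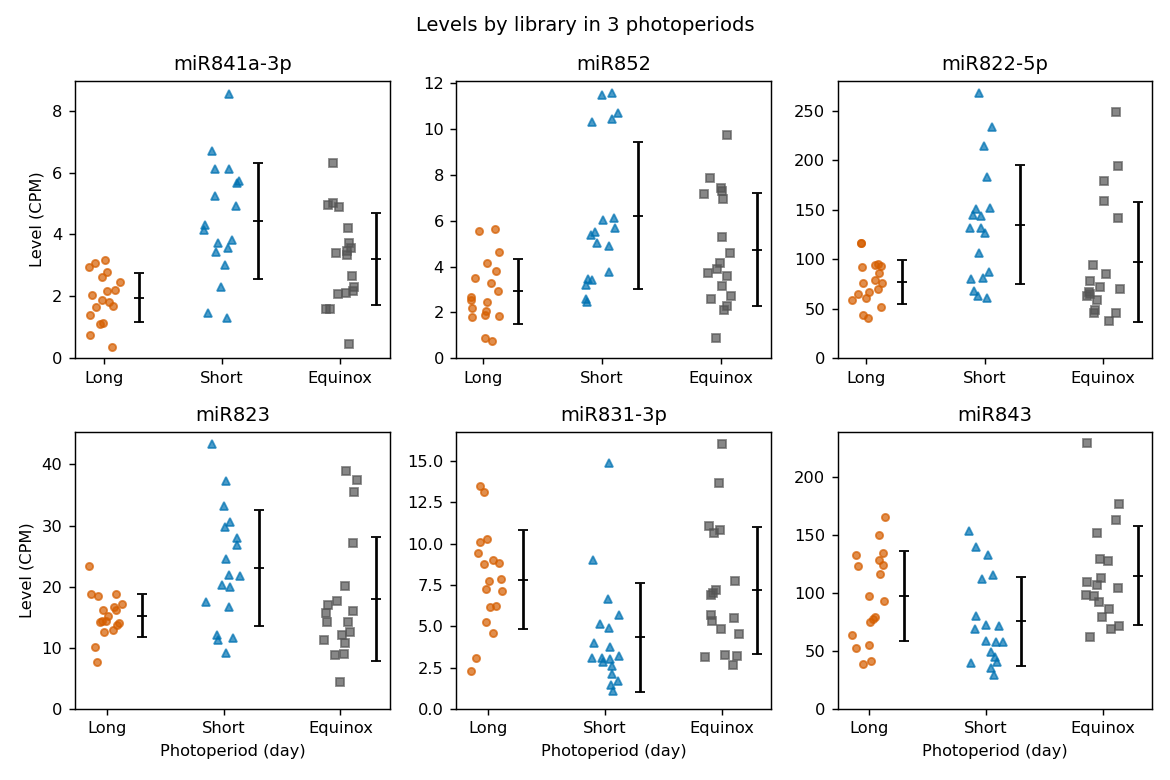
Levels in CPM of 6 young microRNAs in each of 18 libraries under long day, short day and equinox day, with black bars for the mean ± SD beside the points. Long day libraries of miR841a-3p stay at or below 3.16 CPM, and those of miR822-5p at or below 117 CPM, while short day libraries reach 8.55 and 268 CPM.

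Below the threshold, the smallest p was that of miR824-5p, with medians of 6.04 CPM under long day and 9.13 CPM under short day, and a change of -0.55 on the log2 scale with an adjusted p of 0.0571. This member passed in 6 of 9 alternatives, DESeq2 and the fit without the 5 short day libraries among them, and in 15 of the 54 fits that left out 1 library, with log2 fold changes from -0.69 to -0.42. The most abundant member, miR845a, had medians of 785 and 1001 CPM in these groups, with a log2 fold change of -0.17 ± 0.197 (SE) and an adjusted p of 0.556. For miR846-3p the value was -0.18 ± 0.125 (SE, adjusted p = 0.316).

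**Figure D3:**
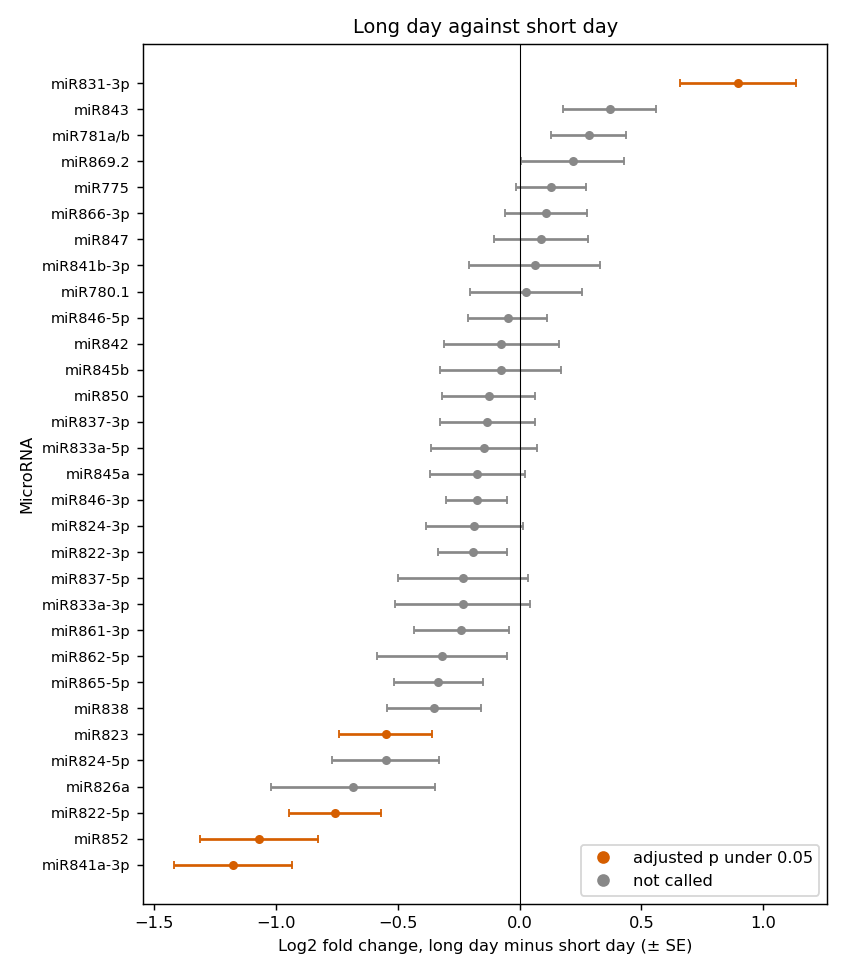
Log2 fold change of the 31 tested young microRNAs, long day minus short day, with its standard error. The 5 members with an adjusted p under 0.05 are coloured: miR831-3p at 0.90 and miR823, miR822-5p, miR852 and miR841a-3p from -0.55 to -1.18. Of the 31 values 22 are negative, and so are 101 of the 149 tested microRNA features that include them.

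Against equinox day, the photoperiod in which all plants had grown before, fewer members passed under long day. Of the 31 tested, 2 passed (6.45%), both lower under long day and none higher, while 15.7% of all features passed, 7.01% lower and 8.66% higher. The median log2 fold change was -0.21 over members and -0.07 over all features. These comparisons share libraries with the one above, so the same members are given here by their own values only. The lowest, median and highest levels of miR841a-3p were 0.367, 1.97 and 3.16 CPM under long day, and 0.448, 3.36 and 6.32 CPM under equinox day. Its highest long day library lay below the equinox median, and the log2 fold change was -0.72 (SE 0.25, adjusted p = 0.0410, lower at 5 of 6 times). Here too, no long day library of miR841a-3p reached the level that the filter asks for. For miR852 they were 0.734, 2.60 and 5.66 CPM under long day, and 0.896, 4.02 and 9.72 CPM under equinox day. These groups overlapped over most of their range, and the log2 fold change was -0.70 (SE 0.246, adjusted p = 0.0431, lower at 5 of 6 times). Both calls lay close to the threshold. That of miR841a-3p was lost in 22 of the 54 fits that left out 1 library, and that of miR852 in 30. With no filter, or with totals that keep the genome entry, neither passed, nor did either with microRNAs alone, and miR852 was also lost with a filter of 1 CPM in 27 libraries. Next to the threshold was miR845a, whose lowest, median and highest levels were 557, 785 and 2089 CPM under long day, and 632, 1274 and 3339 CPM under equinox day. Its log2 fold change was -0.54 (SE 0.197) and it was lower at 6 of 6 times, with an adjusted p of 0.0518. It passed in DESeq2, with DESeq2 size factors, with no scaling factors and in 18 of the 54 fits that left out 1 library. The neighbouring miR845b had a log2 fold change of -0.63 (SE 0.245, adjusted p = 0.0713) and was lower at 6 of 6 times.

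Short day against equinox day gave 4 of 31 members (12.9%), 1 higher and 3 lower under short day, while 32.8% of all features passed, 17.2% higher and 15.6% lower. The median log2 fold change was -0.02 over members and 0.03 over all features. The abundant miR843 ranged from 28.9 to 154 CPM under short day with a median of 64.0, and from 62.1 to 229 CPM under equinox day with a median of 106. Several short day libraries lay below every equinox day library. This was a log2 fold change of -0.63 (SE 0.189, adjusted p = 0.00906, lower at 5 of 6 times). Without the 5 short day libraries that lay apart it was -0.36, with an adjusted p of 0.185.

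Here miR831-3p had 1.08, 3.14 and 14.9 CPM as lowest, median and highest under short day, and 2.64, 6.27 and 16.0 CPM under equinox day. The ranges overlapped almost fully, but the short day median lay near the lowest equinox day library. In the test it gave -0.68 on the log2 scale (SE 0.243, adjusted p = 0.0266), and -0.50 without the 5 libraries that lay apart (adjusted p = 0.176). Its call was lost in 10 of the 54 fits that left out 1 library, and also with totals that keep the genome entry or a filter of 1 CPM. For miR841b-3p the levels were 0.814, 2.33 and 4.18 CPM under short day, and 0.463, 2.99 and 7.09 CPM under equinox day. Its log2 fold change was -0.65 (SE 0.260, adjusted p = 0.0498, lower at 6 of 6 times), and -0.50 without the 5 libraries (adjusted p = 0.226). Leaving out 1 library ended this call in 35 of 54 fits, and it was lost in 8 of 9 alternatives, all but the fit on microRNAs alone.

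The 1 member higher under short day was miR822-5p, with 61.0, 132 and 268 CPM as lowest, median and highest under short day, and 37.5, 70.6 and 248 CPM under equinox day. The equinox day libraries reached almost as high, but their median lay near the lowest short day library. In the test it gave 0.48 on the log2 scale (SE 0.187, adjusted p = 0.0414), positive at 4 of 6 times. Without the 5 libraries it was 0.60 (adjusted p = 0.0257), and the call was lost in 26 of the 54 fits that left out 1 library. With no filter, none of these 4 members passed. The smallest p that missed the threshold was that of miR865-5p, with medians of 11.6 CPM under short day and 9.10 CPM under equinox day, a log2 fold change of 0.42 and an adjusted p of 0.0714. It passed in 6 of 9 alternatives, DESeq2 among them, and in 5 fits that left out 1 library.

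By the roles of their known targets, few members passed in any comparison. Of the regulators of DNA methylation, miR823 changed as given above, and miR773a, which matches MET2 and did not pass the filter, had 78 counts under long day, 89 under short day and 62 under equinox day. Under a filter of 1 CPM in 27 libraries, or with totals that keep the genome entry, miR773a was tested at these low counts and passed for short day minus equinox day. With the 1 CPM filter it also passed for time over all photoperiods. The 3 tested lectin regulators, miR842 and both arms of miR846, gave log2 fold changes from -0.18 to -0.05 for long day minus short day, and none passed in edgeR's test with TMM factors in any comparison. DESeq2 called miR846-3p in this contrast, at -0.26 and an adjusted p of 0.0449, and edgeR with no scaling factors called its interaction of photoperiod and time, with an adjusted p of 0.0352. The cell wall regulator miR775, which passed only when microRNAs were fitted alone, had 61.8 ± 13.3 CPM under long day, 56.3 ± 14.8 CPM under short day and 57.3 ± 17.6 CPM under equinox day (SD, n = 18 each). In that fit it was higher under long day than under equinox day too, by 0.29 on the log2 scale (adjusted p = 0.0297). Neither miR847, which targets the auxin repressor IAA28, nor either arm of miR824 passed over all features and 54 libraries with TMM factors and the minimum count of 10. Under other settings, miR824-5p passed as given above, and miR847 passed for time within equinox day in 2 of 9 alternatives. The other arm, miR824-3p, passed in the interaction in 3 of 9 and for time within equinox day in 2. With microRNAs alone, miR824-3p also passed for short day minus equinox day, at 0.40 on the log2 scale (adjusted p = 0.0168). With 1 library left out, miR824-3p passed in the interaction in 1 fit. Likewise miR847 passed for time within equinox day in 1 fit and for short day minus equinox day in 2. The means of miR847 were 9.13 CPM under long day, 8.45 CPM under short day and 11.8 CPM under equinox day.

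Of the regulators of ion transport and metabolism, miR780.1, which targets the cation exchanger CHX18, had a log2 fold change of 0.03 ± 0.230 (SE) for long day minus short day. For miR826a, which matches the glucosinolate gene AOP2, this value was -0.69 ± 0.336 (SE, adjusted p = 0.129), at means of 1.83 CPM under long day and 2.95 CPM under short day. Among microRNAs tied to the microRNA machinery itself, miR838, which sits in DCL1, had 10.7 ± 3.31 CPM under long day, 13.6 ± 4.92 CPM under short day and 12.9 ± 5.58 CPM under equinox day. The log2 fold change of long day minus short day was -0.35 for miR838 (adjusted p = 0.180). It was -0.57 without the 5 short day libraries that lay apart, where the adjusted p was 0.0473. Made like miR822 by the nuclease DCL4, miR839-5p had 60 counts in all. The immunity-linked miR844 and miR863 and the F-box regulator miR859 (35 counts in all) did not pass the filter.

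The relation between arms and between near-identical features was then compared as log2 ratios of counts within a library (pseudocount 0.5), for 7 pairs and 3 contrasts. These 21 comparisons were chosen after the data were seen and were tested by two-sided permutation within times (100000 draws), adjusted over the 21. The ratio does not depend on the scaling of libraries. Of the 21 comparisons 3 passed. The log2 ratio of miR822-5p to its other arm miR822-3p averaged 0.70 ± 0.40 under long day and 1.25 ± 0.62 under short day (SD, n = 18 each), a difference of -0.54 (permutation p = 0.00403, adjusted p = 0.0282). It was lower under long day at 5 of 6 times. This call was lost without the 5 short day libraries that lay apart, where the adjusted p was 0.124. The level of miR822-3p itself gave a log2 fold change of -0.19 ± 0.142 (SE, adjusted p = 0.334) in the same contrast. For short day against equinox day, the difference of this ratio was 0.58 (permutation p = 0.0151, adjusted p = 0.0793).

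The ratio of miR841a-3p to miR841b-3p compares the pair of features whose annotated 5′ ends are shown above, and how their reads were split is not known. Its log2 value averaged -0.13 ± 0.80 under long day and 0.90 ± 0.92 under short day (SD, n = 18 each), a difference of -1.04 (permutation p = 0.00163, adjusted p = 0.0282). The difference of short day minus equinox day was 0.93 (permutation p = 0.00274, adjusted p = 0.0282) and that of long day minus equinox day -0.10 (permutation p = 0.716, adjusted p = 0.911), with a mean of -0.03 ± 0.86 under equinox day. As shares of both features' summed counts, miR841a-3p held 45.9% of 83 plus 98 counts under long day, 66.9% of 196 plus 97 under short day, and 49.1% of 139 plus 144 under equinox day. The sum of both features averaged 4.28 ± 1.86 CPM under long day, 6.67 ± 2.07 CPM under short day and 6.56 ± 2.88 CPM under equinox day (SD, n = 18 each). Without the 5 short day libraries that lay apart, the 3 ratio differences were -0.50 for miR822 and -0.95 and 0.84 for miR841, each with an adjusted p of 0.124. Leaving out short day ZT4 A or ZT20 A also ended all 3 calls, and leaving out long day ZT4 A or ZT20 A ended that of miR822. For the other 5 pairs, miR824, miR833a, miR837 and miR846 arms and miR845a with miR845b, no comparison passed, with the smallest adjusted p of 0.103 for miR837 in long day minus equinox day.

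**Figure D4:**
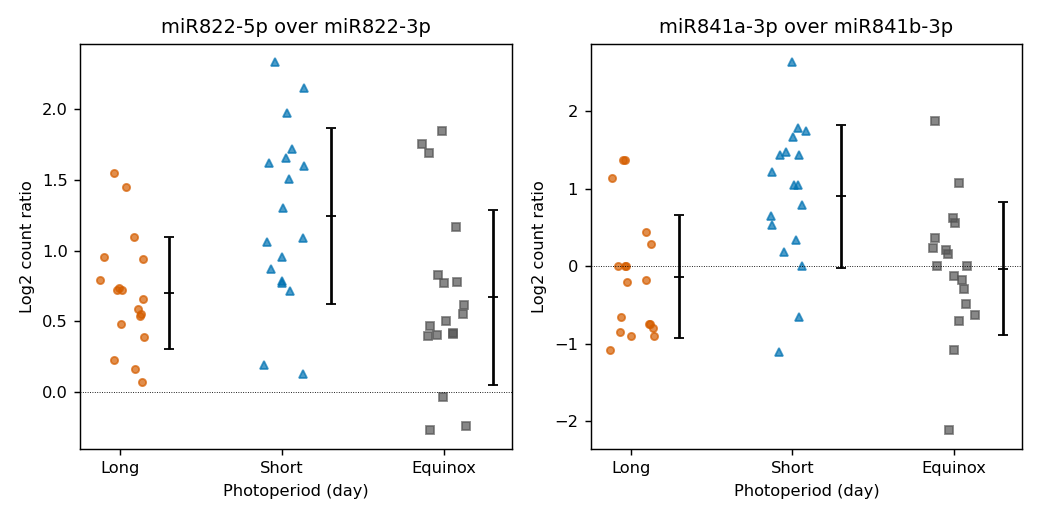
Log2 ratio of counts within each library for miR822-5p over miR822-3p (left) and miR841a-3p over miR841b-3p (right), with 18 libraries each for long day, short day and equinox day and black bars for the mean ± SD. Long day means are 0.70 and -0.13, below the short day means of 1.25 and 0.90, and the points of all groups overlap.

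The 6 times of day were compared within each photoperiod and over all of them. No member passed an adjusted p of 0.05 in edgeR's quasi-likelihood test within long day, where 13.3% of all features passed, within equinox day (5.2%) or within short day (4%). None passed over all photoperiods either, where 8.69% did, nor in the interaction of photoperiod and time (5.92%). At an unadjusted p under 0.05 there were 0, 6, 1, 2 and 2 of the 31 members in these 5 tests. Among all 8869 features, 2341, 1608, 1084, 2019 and 1963 had such a p. DESeq2 called 0, 0, 0, 2 and 2 members, and 1669, 897, 524, 1205 and 1483 of all 8869 features. Its 2 members over all photoperiods were miR846-3p and miR869.2. The smallest adjusted p over all photoperiods was that of miR869.2, at 0.0953. Averaged over photoperiods its level was highest at ZT24, with 11.8 CPM, and lowest at ZT12, with 6.03 CPM. At ZT24 it had 9.80 ± 0.264 CPM under long day, 10.6 ± 3.74 CPM under short day and 14.9 ± 7.88 CPM under equinox day (SD, n = 3 each). For miR846-3p (adjusted p = 0.181) the ZT24 means were 311 ± 63.1 CPM under long day, 431 ± 153 CPM under short day and 406 ± 152 CPM under equinox day, and the mean over photoperiods was 383 CPM at ZT24 and 251 CPM at ZT12.

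Among 31 members, the mean over photoperiods peaked at ZT24 in 16, at ZT16 in 11, at ZT20 in 3 and at ZT8 in 1, and in none at ZT4 or ZT12. Within photoperiods the peaks were spread differently. At ZT24 there were 11 under long day, 16 under short day and 11 under equinox day, at ZT4 there were 4 under long day and 6 under short day, and at ZT8 there were 2 under long day and 9 under equinox day. Over photoperiods the highest mean was 1.17 to 1.95 times the lowest, and these peaks carry no test of their own. The smallest p of the interaction was that of miR822-5p, with an adjusted p of 0.0611. It passed in 5 of 9 alternatives, DESeq2 and the fit without the 5 short day libraries among them, with a smallest adjusted p of 0.00147, and in 6 of the 54 fits that left out 1 library. Under long day its means ran from 53.5 CPM at ZT8 to 103 CPM at ZT4, under short day from 74.2 CPM at ZT8 to 211 CPM at ZT24, and under equinox day from 51.6 CPM at ZT12 to 146 CPM at ZT8. At ZT12 it had 71.0 ± 21.3 CPM under long day, 170 ± 55.8 CPM under short day and 51.6 ± 17.9 CPM under equinox day (SD, n = 3 each), and the lowest short day library, at 132 CPM, lay above the highest of the others, at 94.0 CPM. It also had the smallest adjusted p within equinox day, at 0.152, and within short day, at 0.327, and miR866-3p had it within long day, at 0.25.

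**Figure D5:**
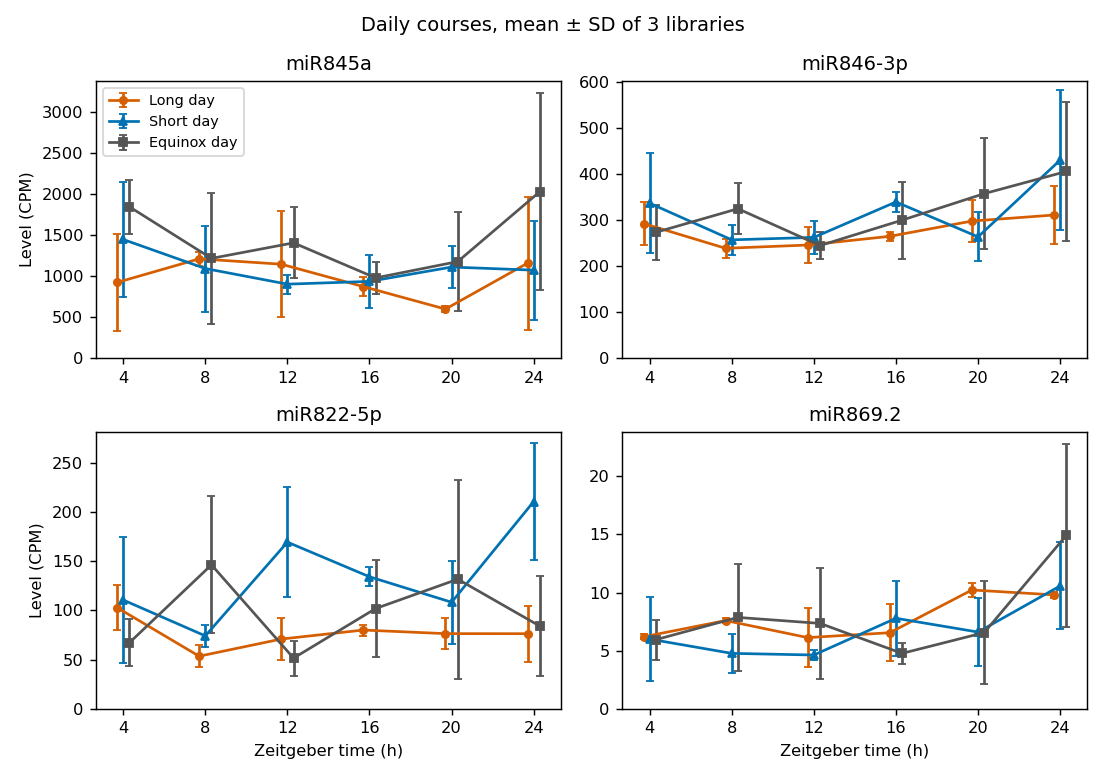
Daily courses of miR845a, miR846-3p, miR822-5p and miR869.2 in CPM against Zeitgeber time in hours, as mean ± SD of 3 libraries for long day (circles), short day (triangles) and equinox day (squares). At ZT24 miR869.2 stands at 9.80 CPM under long day, 10.6 CPM under short day and 14.9 CPM under equinox day, and the error bars of most times overlap.

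Summed over all 67 members, the level was 1851 ± 490 CPM under long day, 2059 ± 593 CPM under short day and 2407 ± 755 CPM under equinox day (SD, n = 18 each). The ranges were 1309 to 3203 CPM under long day, 1298 to 3488 CPM under short day and 1554 to 4920 CPM under equinox day, and they overlapped over most of their length. The ratio was 0.899 for long day over short day, 0.769 for long day over equinox day and 0.856 for short day over equinox day. Between single libraries, the SD of such a ratio was 0.351, 0.316 and 0.364. This SD is not the error of a mean of 18 libraries, and the differences between the sums were not tested. Most of this sum was miR845a. Without it the sums were 868 ± 123 CPM under long day, 968 ± 247 CPM under short day and 967 ± 265 CPM under equinox day. As a share of microRNA counts, members held 1.94% under long day, 2.06% under short day and 2.19% under equinox day.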

How the data were processed

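Small RNA of whole seedlings was counted in 54 libraries, 3 for each of 18 groups of photoperiod and time. The deposited table holds whole read counts per feature. Tools listed in the submitters' processing notes are cutadapt 3.4, Bowtie2 2.5.1 and SAMtools. For their settings, the genome build and the counting rule, nothing is given in the sources used here. The genome entry was left out of totals and tests. edgeR 4.0.16 under R 4.3.3 was fitted with TMM factors, filterByExpr (minimum count 10, minimum total 15) and 1 coefficient per group. The 8 contrasts used the quasi-likelihood test with Benjamini-Hochberg adjustment over 8869 features and a threshold of 0.05. Fold changes are log2 values with the SE that the test implies. Ratios used numpy 2.4.6 and pandas 2.3.3, and figures matplotlib 3.10.9.

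All 67 names were matched to RefSeq TAIR10.1, whose genome gave the mature sequences. The edgeR steps were tested on simulated data. No 2 libraries were identical. Members with values were those past the threshold in any test, the 10 most abundant, both arms of a named hairpin, members of the target role lists, the closest miss per test and the 4 highest below the filter. The members and lists were chosen with earlier results of these data known. Alternatives covered scaling, filters, DESeq2 1.42.0, microRNAs alone, a replicate block and left-out libraries.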

Additional observations from a re-analysis of the deposited data

How the results depend on the processing

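The members past the threshold under long day against short day numbered 5 of 31, 4 to 6 as each library was left out, 9 of 30 with microRNAs alone and 3 of 67 with no filter. Of all features, 2231 of 8869 passed with the settings above, 69 of 145 with microRNAs alone and 1715 of 223651 with no filter. Long day against equinox day gave 2 members, and 0 with totals that keep the genome entry, 1 with a filter of 1 CPM in 27 libraries, 1 with microRNAs alone, 0 with no filter and 0 to 4 as each library was left out. Of all features, 1390 of 8869 passed, and 1402 of 8706 with the genome entry kept. The 1 CPM filter gave 1488 of 10324, microRNAs alone 14 of 145 and no filter 1126 of 223651. Short day against equinox day gave 4 members, and 10 of 30 with microRNAs alone, 1 of 32 without the 5 short day libraries that lay apart, 0 with no filter and 1 to 6 as each library was left out. Of all features, 2909 of 8869 passed, and 61 of 145 with microRNAs alone. Without the 5 libraries 2030 of 9269 passed, and with no filter 2486 of 223651. Time within long day gave 0, and 1 with microRNAs alone, where all features gave 1184 of 8869, and 27 of 145. Time within equinox day gave 0, and 4 with no scaling factors, 5 with microRNAs alone and 0 to 2 with a library left out. Of all features, 461 of 8869 passed, 644 of 8869 with no scaling factors and 36 of 145 with microRNAs alone. Time over all photoperiods gave 0, and 1 with the 1 CPM filter, 1 with microRNAs alone and 2 in DESeq2. With a library left out it gave 0 to 2. Of all 8869 features, 8.69% passed with the settings above, and 1205 passed in DESeq2. The 1 CPM filter gave 752 of 10324 features and microRNAs alone 32 of 145. The interaction gave 0, and 1 with DESeq2 size factors, 4 with no scaling factors, 4 with microRNAs alone, 1 without the 5 libraries, 2 in DESeq2 and 0 to 2 with a library left out. Of all 8869 features, 525 passed, 667 with DESeq2 size factors, 1151 with no scaling factors and 1483 in DESeq2. With microRNAs alone 38 of 145 passed, and without the 5 libraries 744 of 9269. The cause of these moves was not tested. Totals that keep the genome entry moved the median log2 fold change of all features to 0.11 for long day minus short day, against -0.02, and to 0.13 for long day minus equinox day, against -0.07. The letters A to C did not pair the libraries: same-letter libraries correlated at -0.01 on average, and 16 of 54 were closest to their own letter. With a replicate block, 5, 2 and 3 members passed in the long day minus short day, long day minus equinox day and short day minus equinox day contrasts, and 0 in the others. Of all 8869 features, 2124, 1385 and 2856 passed in these 3 contrasts. No called member reversed its direction in any alternative. At this depth 36 of the 67 members did not pass the filter on low counts.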

Other observations

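Some members below the filter on low counts had unequal totals between photoperiods. They were chosen after their values were seen, and none passed in the fit with no filter. For miR864-5p there were 2 counts over the 18 long day libraries, 17 over the 18 short day libraries and 11 over the 18 equinox day libraries. For miR839-5p, which is made by DCL4 like the called miR822-5p, there were 16 counts under long day, 32 under short day and 12 under equinox day. For miR830-5p there were 5 counts under long day, 14 under short day and 2 under equinox day. The MET2 regulator miR773a lay at the edge of the filter, and it was tested and called for short day minus equinox day in 21 of the 54 fits that left out 1 library and in 2 alternatives, with log2 fold changes from 0.84 to 1.27 over all the fits that called it. For time over all photoperiods miR773a was called in 5 such fits and with the 1 CPM filter, and for time within equinox day in 1 such fit. With 1 library left out the smallest group is smaller, and the filter then asks for fewer libraries. These fits share most libraries and are not separate support. Its means were 2.01 CPM under short day and 1.40 CPM under equinox day, where 15 of 18 libraries had a count.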
